A study of Drosophila melanogaster with 10 samples.

Results

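The genes described here encode the nuclear subunits of the mitochondrial respiratory chain and of the ATP synthase. They also include enzymes of the citric acid cycle that feeds these, and of related reactions. They were chosen by symbol: every row of the deposited table whose symbol starts with ATPsyn, CoI, CoV, Sdh, or ND and a digit or hyphen, and a list of named genes of the same pathway. This gave 35 of the 7987 genes listed, of which 5 belong to complex I, 3 to complex II, 2 to complex III, 8 to complex IV and 9 to complex V, 1 encodes cytochrome c and 7 form a citric acid cycle group. That group also holds the NADP-dependent isocitrate dehydrogenase Idh and the cytosolic malate dehydrogenase Mdh1. All 35 passed the filter on low values and were tested, and their lowest read number in any library was 30, for ox. Of the names in the list, 2 have no row. Scs-fp is an older name of SdhA, which is among the 35, and the gene now called Cyt-c1 is listed as CG4769 and is described with the other subunits. No symbol beginning with mt: is listed, so the subunits encoded in mitochondrial DNA were not analysed here.

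Electrons from NADH and from succinate enter the chain at complex I and at complex II. They pass through ubiquinone to complex III, through the soluble carrier cytochrome c to complex IV (cytochrome c oxidase), and from there to oxygen. The proton gradient built on the way turns the central stalk of the ATP synthase (complex V) inside its catalytic head, which the peripheral stalk holds still. Most subunits are made from nuclear genes, and a few core subunits from mitochondrial DNA, so that the complexes join products of both genomes.

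RNA was sequenced from pooled wing imaginal discs, the larval epithelia that give rise to the adult wing, of larvae of 4 genotypes. In all of them Gal4 under the apterous enhancer, held back by temperature-sensitive Gal80 until induction, drove UAS transgenes in the dorsal compartment, so that the discs also held cells without transgene activity. The control, ap > GFP (2 libraries, replicates 1 and 3), expressed GFP alone and carried an extra copy of it, since every genotype also has UAS GFP. The same driver expressed an RNAi construct against Nelf-A, a subunit of the complex that holds RNA polymerase II paused near promoters, in ap > NelfAi (2 libraries). In ap > Yki (3 libraries) it expressed Yorkie, the transcriptional coactivator of the Hippo pathway, and in the tumorous ap > Yki+NelfAi (3 libraries) it expressed both, and RNA of that genotype came from the fewest discs.

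Between 6990931 and 13065642 reads per library fell on the listed genes. A value below is the deposited one, the reads on a gene divided by a factor of its library, so that 1 read was worth 0.0464 to 0.0839. The libraries labelled ap > NelfAi stood apart from each other: their Spearman correlation across genes was 0.859, against 0.950 to 0.990 for replicates of the other genotypes. Their log2 values relative to the mean over all libraries followed transcript length in opposite directions (rho = -0.656 and 0.485 across genes). Those of ap > Yki replicate 3 also followed it (0.469). Nelf-A was at 40.4 and 36.0 in ap > GFP, at 11.4 and 32.9 in ap > NelfAi, at 28.1, 31.9 and 39.4 in ap > Yki, and at 17.1, 15.8 and 16.9 in the tumorous discs. The 7 markers of the disc epithelium (ap, vg, nub, sd, wg, en and ci) summed to between 294.7 and 875 in every library, and none of them was at 0 throughout.

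In the tumorous discs, 3 of 8 genes of cytochrome c oxidase, 4 of 9 of the ATP synthase and 2 of 7 of the citric acid cycle group fell against the control. The gene of cytochrome c rose, and none of the 10 genes chosen from complexes I to III was called. Against ap > GFP, 9 of the 35 genes fell and 1 rose (limma on log2(value + 0.5), Benjamini-Hochberg adjusted p under 0.05 over all 7858 genes tested and a change of at least 1.5-fold). The 9 are 25.7% of the 35, where 12.1% of all genes tested were called lower, and the 1 that rose compares with 10% called higher. In 24 of the 35 (68.6%) every tumorous library lay below both control libraries, against 31% of all genes. The median log2 fold change of the 35 was -0.53, from -1.17 to 0.92, and that of all genes tested was 0.03. Since whole discs were sequenced, fewer cells that express a gene and less RNA per cell cannot be told apart. Of the 10 calls, edgeR on the recovered reads kept 8, all lower, and not those of blw and Cyt-c-p. The calls rest on few control libraries: without ap > GFP replicate 1 or replicate 3 the count of 10 became 0, and without tumorous replicate 1, 2 or 3 it became 2, 3 or 5, and without ap > Yki replicate 2 it became 4. In these fits all 10 genes kept their direction, and the median of the 35 stayed between -0.60 and -0.43 whichever library was left out.

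**Figure D1:**
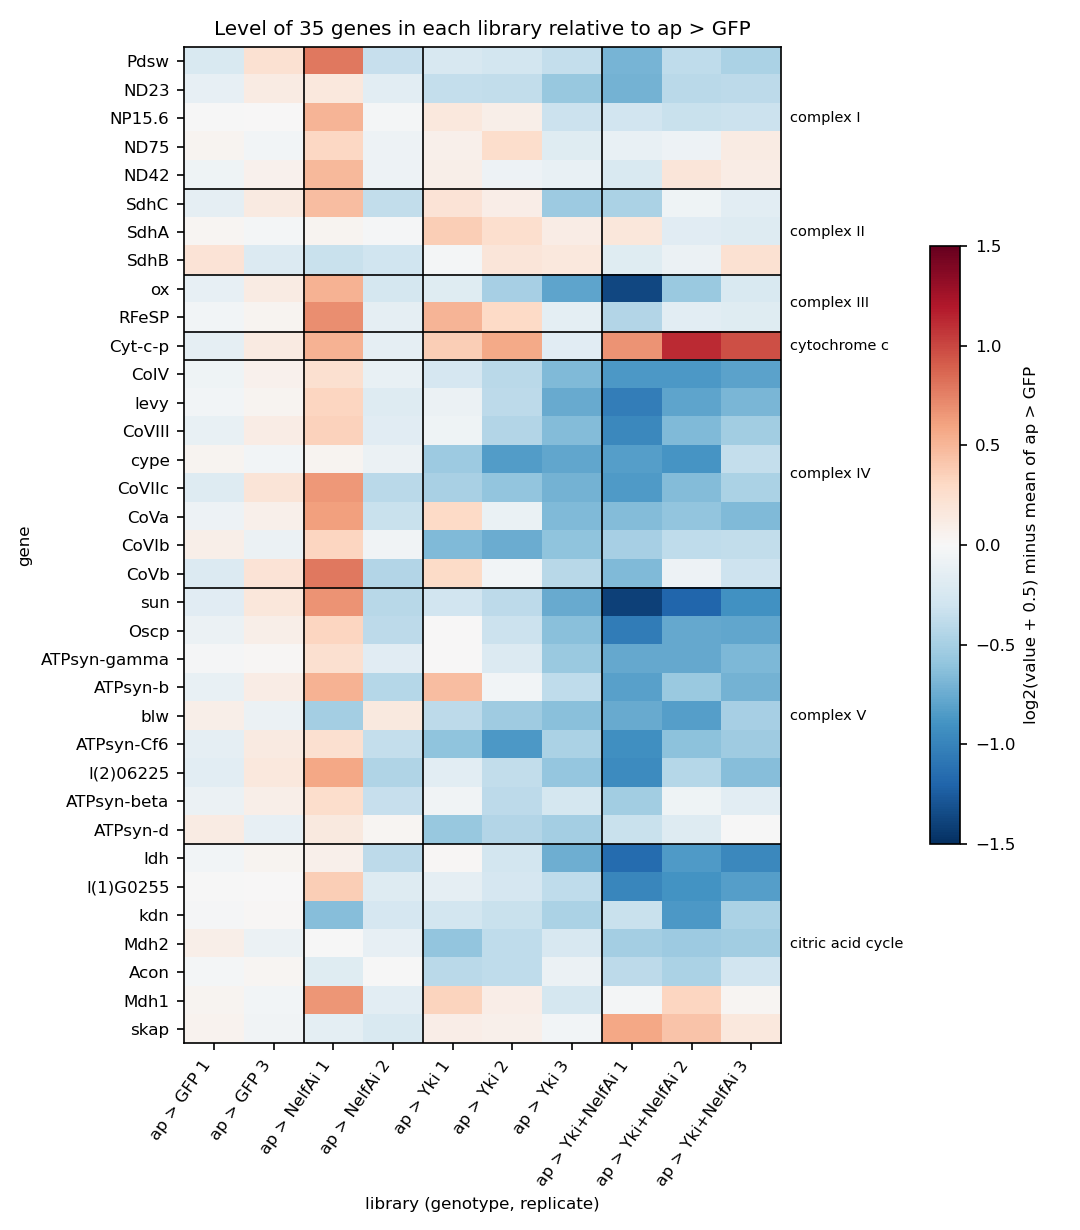
Heat map of the 35 genes (rows, grouped by complex and ordered by their change in the tumorous discs) in the 10 libraries (columns), as log2(value + 0.5) minus the mean of ap > GFP. The blocks of complexes IV and V are blue in the 3 tumorous libraries, Cyt-c-p is red there, and ap > NelfAi replicate 1 is red in 29 of 35 rows.

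Complex IV reduces oxygen to water. All 8 of its genes had lower means in the tumorous discs, as had 3770 of the 7858 genes tested. In 7 of the 8 every tumorous library was below both controls (31% of all genes). Of the 8, 3 were called, where 12.1% of all genes were called lower. CoIV, the gene of subunit 4 (now COX4, on 2L), was at 238 and 259 in ap > GFP, at 293 and 229 in ap > NelfAi, at 208, 187 and 156.3 in ap > Yki, and at 137, 136 and 142 in the tumorous discs. The tumorous libraries lay close together and below every other library, with a mean of 55.7% of the control. The log2 fold change was -0.84 (standard error, SE, 0.18, adjusted p = 0.0106), and it was called in 8 of the 10 fits that leave out 1 library, all but those without ap > GFP replicate 1 or 3. levy, which encodes a subunit of the oxidase and was named for the paralysis of its mutants, had values of 402 and 427 in ap > GFP and of 201, 240 and 257 in the tumorous discs. It was at 516 and 363 in ap > NelfAi and at 389, 314 and 245 in ap > Yki, so that only the highest tumorous library overlapped ap > Yki. It changed by -0.84 on the log2 scale against ap > GFP (SE 0.24, adjusted p = 0.0336), a call kept in 4 of the 10 fits. cype, another oxidase subunit, was at 75.7 and 72.0 in ap > GFP, at 75.7 and 69.6 in ap > NelfAi, at 50.6, 40.9 and 42.7 in ap > Yki, and at 41.6, 39.7 and 57.3 in the tumorous discs. Here the discs with Yki alone were as low as the tumorous ones, and the 2 genotypes overlapped. Its log2 fold change in the tumorous discs was -0.69 (SE 0.20, adjusted p = 0.0374; called in 5 of 10 fits). CoVIII (152 and 177 in ap > GFP, 83.6, 103 and 114 in the tumorous discs) had a log2 fold change of -0.72 with an adjusted p of 0.0621. CoVa was at 215 and 238 in ap > GFP and at 144, 150 and 143 in the tumorous discs, which did not overlap. Its ap > Yki libraries spread from 143 to 279, and the log2 fold change of -0.63 had an adjusted p of 0.192. CoVb showed the smallest difference of the complex, at -0.35 (SE 0.36, adjusted p = 0.543), with overlapping groups. The remaining genes, CoVIb and CoVIIc, were at 74.7% and 63.1% of the control mean.

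Complex V makes ATP. All 9 of its genes had lower means, 7 of them with no overlap with the controls, and 4 were called, from the head and from both stalks. Of all 7858 genes tested, 3770 had lower means, 31% were below the controls in every library and 12.1% were called lower. sun, the epsilon subunit of the central stalk (X), changed most of all 35 genes on the log2 scale. It was at 59.5 and 75.7 in ap > GFP, at 107 and 50.0 in ap > NelfAi, at 54.8, 50.8 and 39.5 in ap > Yki, and at 25.0, 29.1 and 35.5 in the tumorous discs. All 3 tumorous libraries were below the other 7, at a mean of 44.2% of the control, and the log2 fold change was -1.17 (SE 0.32, adjusted p = 0.0278; called in 6 of 10 fits). ATPsyn-gamma, the shaft of the central stalk (3R), was at 394 and 403 in ap > GFP, at 472 and 353 in ap > NelfAi, at 400, 344 and 271 in ap > Yki, and at 234, 234 and 250 in the tumorous discs. Again no other library was as low, and the log2 fold change was -0.73 (SE 0.20, adjusted p = 0.0311; called in 4 of 10 fits). Oscp, in the peripheral stalk (3R), was at 462 and 521 in ap > GFP, at 615 and 374 in ap > NelfAi, at 491, 393 and 318 in ap > Yki, and at 236, 287 and 285 in the tumorous discs. The tumorous libraries did not overlap those of any other genotype, and the log2 fold change was -0.87 (SE 0.26, adjusted p = 0.0381; called in 4 of 10 fits).

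The catalytic subunits of the head differed. blw, the alpha subunit, was at 616 and 545 in ap > GFP, at 441, 401 and 374 in ap > Yki, and at 343, 328 and 411 in the tumorous discs. It passed narrowly, with a log2 fold change of -0.69 (SE 0.22, adjusted p = 0.0485), and the call was kept in 2 of 10 fits. It was also at 406 and 640 in ap > NelfAi, with the lower value in replicate 1, where most of the 35 genes were higher than in replicate 2. ATPsyn-beta, the beta subunit, was at 640 and 718 in ap > GFP and at 471, 650 and 609 in the tumorous discs, which overlapped. Its log2 fold change was -0.25 (SE 0.23, adjusted p = 0.496). ATPsyn-d, in the peripheral stalk, changed least in the complex, by -0.18 (SE 0.17, adjusted p = 0.504). The others, ATPsyn-b, ATPsyn-Cf6 and the gene now called ATPsynG, were at 61.6%, 62.1% and 63.2% of the control mean, with every tumorous library below both controls, and were not called.

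**Figure D2:**
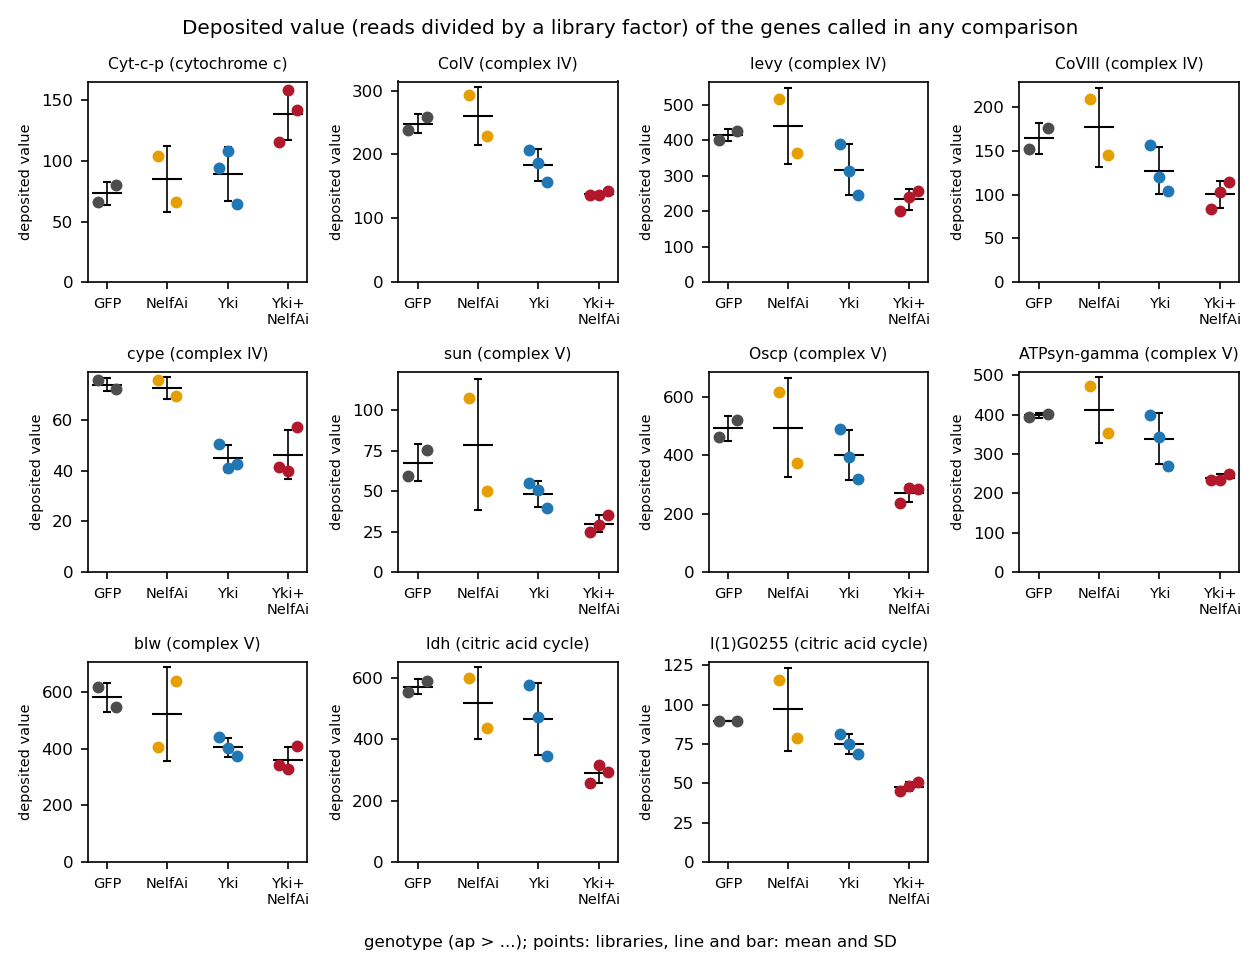
Deposited values of the 11 genes called in any comparison, 1 panel per gene with the vertical axis from 0. Points are libraries, and the line and bar are the mean and SD of a genotype (n = 2 or 3). For CoIV, sun, Oscp, ATPsyn-gamma, Idh and l(1)G0255 the 3 tumorous libraries lie below all other libraries, and for Cyt-c-p above them.

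Cytochrome c went the other way. Cyt-c-p encodes the carrier between complexes III and IV, which is also known as a signal in apoptosis of vertebrate cells. It was at 66.4 and 79.9 in ap > GFP, at 104 and 66.0 in ap > NelfAi, at 93.9, 108 and 64.5 in ap > Yki, and at 116, 159 and 142 in the tumorous discs. The tumorous libraries were above the other 7, at 190% of the control mean. The log2 fold change was 0.92 (SE 0.28, adjusted p = 0.0434), and the call was kept in 3 of the 10 fits that leave out 1 library and not by edgeR.

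Of the 7 enzymes grouped with the citric acid cycle, 2 fell and none rose, where 12.1% of all genes tested were called lower and 10% higher. Idh, the NADP-dependent isocitrate dehydrogenase (3L), was at 554 and 589 in ap > GFP, at 601 and 435 in ap > NelfAi, at 578, 473 and 344 in ap > Yki, and at 257, 317 and 293 in the tumorous discs. The tumorous mean was 50.5% of the control, below all other libraries, with a log2 fold change of -0.99 (SE 0.24, adjusted p = 0.0177; called in 7 of 10 fits). l(1)G0255, now Fum1, encodes fumarase, which hydrates fumarate to malate, and lies on X at 6678424 to 6681845 (dm6). It was at 89.6 and 89.9 in ap > GFP, at 116 and 78.6 in ap > NelfAi, at 81.6, 75.1 and 68.7 in ap > Yki, and at 45.2, 48.0 and 50.6 in the tumorous discs. Replicates of the tumorous discs were close together and no other library came near them, and the log2 fold change was -0.90 (SE 0.20, adjusted p = 0.0104; called in 8 of 10 fits, all but those without ap > GFP replicate 1 or 3). Of its exon bases 8.4% are shared with Fum2 and ND-ASHI, so that some of its reads could belong to either. Mdh2, the mitochondrial malate dehydrogenase, was at 215 and 189 in ap > GFP and at 141, 138 and 141 in the tumorous discs. It passed the adjusted p (0.0488) but with a log2 fold change of -0.53 not the minimum fold. kdn, citrate synthase, was at 95.1 and 98.2 against 76.5, 53.1 and 69.5 (log2 fold change -0.56, adjusted p = 0.0817), and Acon, aconitase, at 210 and 218 against 162, 154 and 175 (-0.39, adjusted p = 0.132). Neither passed, although no tumorous library reached a control. The cytosolic malate dehydrogenase Mdh1 overlapped between the groups, with a log2 fold change of 0.11 (SE 0.27). skap, the ATP-forming beta subunit of succinyl-CoA synthetase, was at 140 and 131 in ap > GFP and at 203, 183 and 152 in the tumorous discs. All 3 were above the controls, and with Cyt-c-p it was the only gene of the 35 of which this holds, but its log2 fold change of 0.39 had an adjusted p of 0.139.

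Among the 10 genes chosen from complexes I to III limma, edgeR and DESeq2 called 0, and 1, ND23, had an unadjusted p under 0.05. In complex I, which takes electrons from NADH, ND75, the large iron-sulfur subunit of the input arm, was at 46.2 and 43.3 in ap > GFP and at 41.3, 42.5 and 48.8 in the tumorous discs (log2 fold change -0.02, SE 0.20). ND42, an accessory subunit, was at 74.7 and 82.2 against 66.8, 88.9 and 84.4 (0.02, SE 0.21). For both the groups overlapped. Pdsw, an accessory subunit of the membrane arm, was the lowest of the complex, at 65.0 and 89.1 against 46.6, 58.3 and 54.5, with a log2 fold change of -0.52 (SE 0.30, adjusted p = 0.262). In complex II, succinate dehydrogenase, SdhB was at 28.2 and 21.0 against 21.5, 22.8 and 28.7, a log2 fold change of -0.01 (SE 0.20), and SdhC differed most, by -0.23 (SE 0.30, adjusted p = 0.638). All 3 genes of this complex overlapped between tumorous discs and controls. In complex III, RFeSP, the Rieske iron-sulfur protein, had a log2 fold change of -0.26 (SE 0.28, adjusted p = 0.557). The small subunit gene ox, the lowest in reads, had -0.71 (SE 0.38, adjusted p = 0.212), and on the log2(value + 0.5) scale changes of such low values are understated. A p that misses the threshold does not show that these genes were unchanged: with standard errors of 0.18 to 0.38 a change of the size seen in complex IV could have been missed in several of them.

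**Figure D3:**
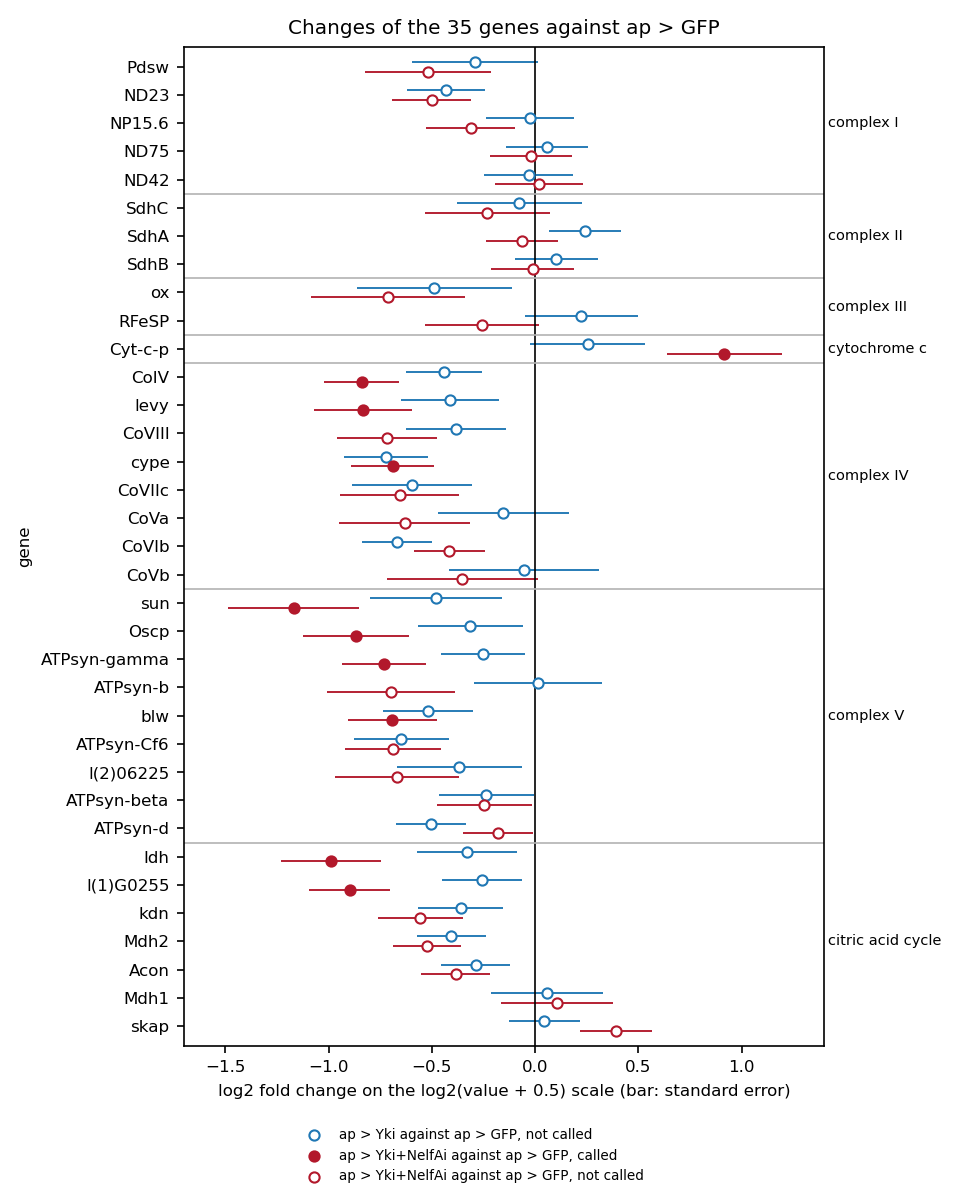
Log2 fold changes of the 35 genes against ap > GFP on the log2(value + 0.5) scale, with standard errors, for ap > Yki (blue) and ap > Yki+NelfAi (red). Filled points are called. The 10 called genes are all red, and 9 of them lie left of 0.

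With Yki alone no gene passed the test. Against ap > GFP, limma called 0 of the 35 (8 had an unadjusted p under 0.05), edgeR called 0 and DESeq2 2, cype and CoVIb, where limma called 4.05% of all genes in either direction. The median log2 fold change was -0.29, against -0.01 over all genes, and in 16 of 35 (45.7%) every ap > Yki library was below both controls, against 19.3% of all genes. The lowest values were those of complex IV: cype at -0.72 (SE 0.20, adjusted p = 0.087) and CoVIb at -0.67 (SE 0.17, adjusted p = 0.0658). CoVIb was at 184 and 163 in ap > GFP, at 109, 103 and 114 in ap > Yki and at 123, 133 and 133 in the tumorous discs, so that it was lowest with Yki alone. ATPsyn-d had the same order, at 249 and 210, at 154, 169 and 160, and at 181, 200 and 228. In 23 of the 35 genes the means descended from ap > GFP over ap > Yki to the tumorous discs, and in the other 12 they did not. The share of all genes with this order was not computed. These comparisons share the control libraries, so the values stand side by side and are not independent. Without ap > NelfAi replicate 1 or replicate 2 the count of calls became 2.

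Tumorous discs and ap > Yki differ by the RNAi construct, but also in yki itself, which was at 2637, 3396 and 4007 in ap > Yki and at 8143, 11377 and 9925 in the tumorous discs, so that the effects of both cannot be told apart in this comparison. Between them 1 of the 35 fell, against 10.2% of all genes. It was l(1)G0255, with a log2 fold change of -0.64 (SE 0.17, adjusted p = 0.033). The call was kept in 3 of 10 fits. Leaving out ap > GFP replicate 1 or 3, ap > Yki replicate 1 or 2, or any tumorous library gave 0 calls. Leaving out ap > Yki replicate 3 gave 3, and either ap > NelfAi library 5, 1 of them higher. The median of the 35 was -0.19, and 9 genes (25.7%) had every tumorous library below every ap > Yki library, against 21.6% of all genes. The lowest values were ATPsyn-b at -0.71 (SE 0.28, adjusted p = 0.107) and sun at -0.69 (SE 0.28, adjusted p = 0.126). Cyt-c-p was at 0.66 (SE 0.25, adjusted p = 0.0979), with no overlap.

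The libraries labelled ap > NelfAi differed in Nelf-A itself, which in replicate 2 (32.9) was near the control (36.0 and 40.4) and within the range of ap > Yki. Both are kept under their label here, and their values are those of the libraries so labelled. Against ap > GFP limma called 0 of the 35 (0 with an unadjusted p under 0.05), and edgeR and DESeq2 0, where limma called 0.0764% of all genes. The median log2 fold change was 0.07, and 23 of the 35 had their highest mean in ap > NelfAi, a share not computed over all genes. The ap > NelfAi mean joined unlike libraries: 31 of 35 genes were higher in replicate 1 than in replicate 2. The median log2 difference of the 35 was 0.54, against 0.07 over all genes tested. CoVb, for example, was at 254 and 108, Pdsw at 132 and 59.5, and Mdh1 at 160 and 89.8. Replicate 1 is also the library with the lower Nelf-A value. Against these libraries, 8 genes fell in the tumorous discs (22.9%, where 9.11% of all genes were called lower) and 0 rose (8.36% of all genes). There were 2 members above with an unadjusted p under 0.05, Cyt-c-p and skap, and edgeR and DESeq2 called none higher. Those that fell were sun (-1.30), l(1)G0255 (-0.99), CoIV (-0.90), levy (-0.90), Idh (-0.83), CoVIII (-0.81), ATPsyn-gamma (-0.77) and cype (-0.67), with adjusted p between 0.00831 and 0.0496, of which CoVIII is the gene not called against ap > GFP. In 21 of the 35 genes (60.0%) every tumorous library was below both ap > NelfAi libraries, against 20.6%. Counted in either direction, the calls numbered 21 without ap > NelfAi replicate 2 and 4 without replicate 1, 3 without either ap > GFP library or ap > Yki replicate 2, and 2, 2 and 5 without tumorous replicates 1, 2 and 3. Of the 4 and of the 5, 1 was higher. With no minimum fold limma called 9, 1 of them higher, and with the trend with transcript length removed 10, 2 of them higher. A fit of ap > Yki+NelfAi and ap > NelfAi alone kept 0 of the 8 calls. The interaction, which asks whether the effects of Yki and of the RNAi add up on the log scale, called 0 genes by limma (1 with an unadjusted p under 0.05), 0 by edgeR and 0 by DESeq2, against 1.26% of all genes by limma. Its median was -0.20, and sun had the lowest value (-0.82, SE 0.45, adjusted p = 0.45). Without ap > NelfAi replicate 2 the interaction called 4.

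Most of the 35 transcripts are short, with a median of 807 bases against 1975 for all genes tested, and the libraries differed in how values ran with transcript length. As deposited, the medians of the 35 relative to ap > GFP were -0.67, -0.47 and -0.39 in the tumorous libraries, -0.06, -0.32 and -0.48 in those of ap > Yki, and 0.32 and -0.19 in those of ap > NelfAi. With each library's trend with length removed they were -0.47, -0.45 and -0.44, then -0.14, -0.30 and -0.29, and then -0.14 and -0.08. The tumorous libraries drew together below all others, and the ap > NelfAi libraries no longer lay on both sides of the control. In that fit 9 of the 10 calls against ap > GFP were kept, all but cype, and the count was 12. The 1096 genes tested with transcripts of 500 to 1000 bases had a median log2 fold change of 0.02, and the 16 of that length among the 35 had -0.51.

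**Figure D4:**
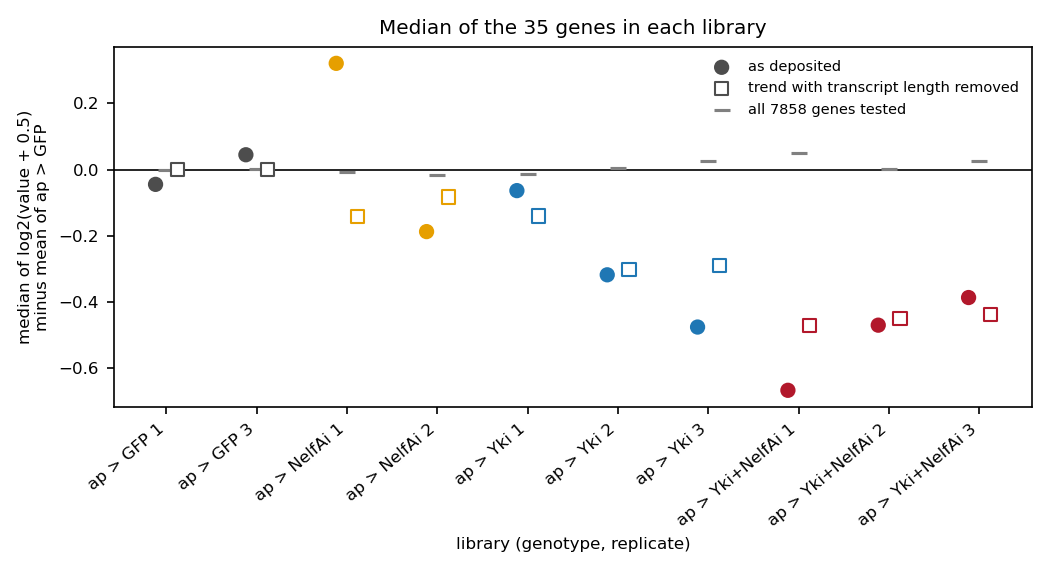
Median over the 35 genes of log2(value + 0.5) minus the mean of ap > GFP in each library, as deposited (circles) and with the trend with transcript length removed (squares), with the median of all 7858 genes tested (dashes). After the removal the tumorous libraries lie between -0.47 and -0.44 and the ap > NelfAi libraries at -0.14 and -0.08.

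Among levels, compared per kilobase of transcript in ap > GFP, the ATP synthase and oxidase genes led. levy was highest with a value of 765 per kilobase, followed by ATPsynG with 712 and Oscp with 613. The lowest were SdhB with 20.2, ND75 with 17.5 and ox with 13.5 per kilobase. In the tumorous discs levy was at 430, ATPsynG at 449 and Oscp at 336 per kilobase. Cyt-c-p went from 111 per kilobase in the control to 211, above CoIV, which went from 308 to 171.

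The genes lie on all chromosome arms, 9 on 2L, 6 on 2R, 3 on 3L, 11 on 3R, 5 on X and 1, ATPsyn-beta, on 4. CoIV is on 2L at 19958713 to 19960065, Cyt-c-p on 2L at 16719932 to 16722644, Idh on 3L at 8356404 to 8360906 and sun on X at 15847859 to 15849258 (dm6). Exon bases are shared with another gene in 13 of the 35, by at most 15.7%, and the counting is not stated to use strand, so reads of an overlapping gene on the other strand cannot be told apart there.

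Another 39 genes carry a current symbol of a subunit (ND-, Sdh, UQCR, COX or ATPsyn) and lie outside the rule, 1 of them the assembly factor gene Sdhaf3. Of these, 3 fell and 1 rose in the tumorous discs against ap > GFP, smaller shares than the 12.1% called lower and 10% called higher over all genes tested, and the median log2 fold change was -0.32. Those that fell belong to complexes IV and V. CG4692, now ATPsynF, in the membrane part, was at 533 and 534 in ap > GFP and at 277, 227 and 246 in the tumorous discs, far apart, with a log2 fold change of -1.10 (SE 0.25, adjusted p = 0.0128). CG9603, now COX7A, had -1.03 (SE 0.22, adjusted p = 0.0097), and CG1746, now ATPsynC, the subunit of the rotating ring, -0.70 (SE 0.21, adjusted p = 0.0416). With Yki alone CG9603 was as low, at 260, 200 and 313 against 240, 208 and 265 in the tumorous discs. For CG4692 and CG1746 the libraries of ap > Yki and of the tumorous discs did not overlap. The gene that rose was CG1970, now ND-49, of complex I, at 53.4 and 55.5 in ap > GFP and at 97.0, 113 and 89.5 in the tumorous discs (0.86, SE 0.20, adjusted p = 0.0132). In ap > Yki this gene was at 90.1, 76.5 and 70.7, also above the control. With the 27 genes of the rule that belong to a complex, all 14 of complex V and all 10 of complex IV had lower means, 6 and 4 of them called. In complex V, CG31477, now ATPsynepsilonL, had low values, 2.56 and 3.40 in ap > GFP. In the tumorous discs it was at 0.617, 1.03 and 2.05, and it was not called. In complex I 24 of 31 had lower means, 0 of them called, with a median of -0.31, against -0.69 in complex V and -0.67 in complex IV. Whether the complexes differ from each other was not tested. CG4769, the gene now called Cyt-c1, of complex III, had -0.33 (SE 0.25, adjusted p = 0.404).

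**Figure D5:**
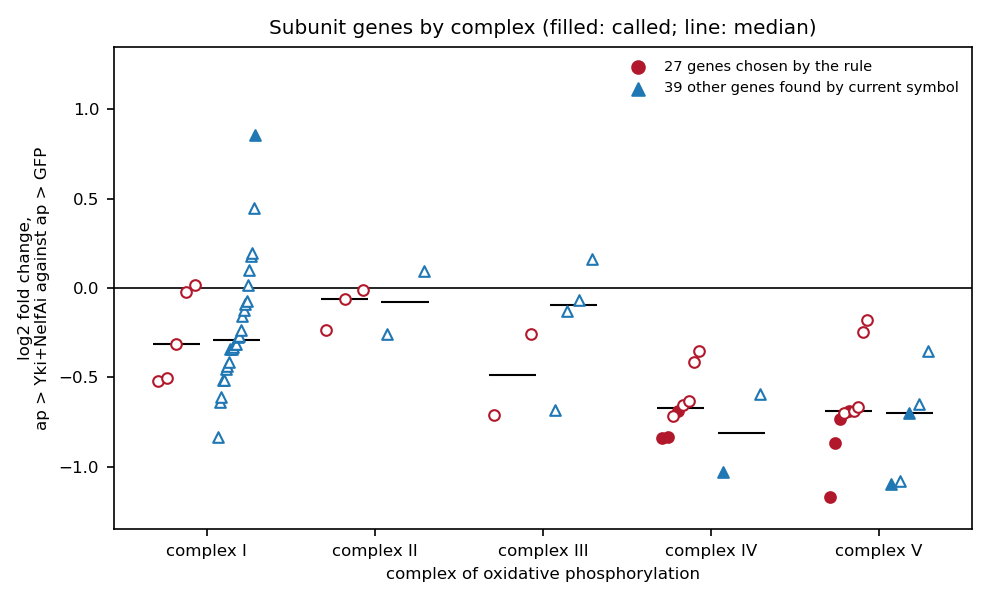
Log2 fold change in ap > Yki+NelfAi against ap > GFP of the 27 subunit genes of the rule (circles) and of the 39 found by current symbol (triangles), by complex. Filled points are called and lines are medians. Every point of complexes IV and V lies below 0, and the filled triangle above 0 in complex I is CG1970.

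Around the chain, 15 other genes of the citric acid cycle and pyruvate metabolism were tested, with a median log2 fold change of -0.04 against ap > GFP. Of them 2 fell and 2 rose, close to the shares over all genes (12.1% and 10%). CG1516, pyruvate carboxylase (now PCB), was at 56.7 and 31.4 in ap > GFP, at 69.6, 42.5 and 38.9 in ap > Yki and at 17.6, 17.0 and 17.5 in the tumorous discs (-1.26, SE 0.31, adjusted p = 0.0178). CG5214, a dihydrolipoamide succinyltransferase of the oxoglutarate step, had -0.60 (SE 0.16, adjusted p = 0.0291). Men, malic enzyme, which turns malate into pyruvate, was at 10.1 and 7.66 in ap > GFP, at 19.7, 20.9 and 20.4 in ap > Yki and at 49.5, 99.0 and 66.2 in the tumorous discs (2.90, SE 0.31, adjusted p = 0.000284). The libraries of ap > GFP, ap > Yki and the tumorous discs did not overlap. Men-b, the mitochondrial malic enzyme, had 0.71 (SE 0.21, adjusted p = 0.0394). Of 10 carriers and controllers of oxidative phosphorylation 0 were called by limma, with 2 at an unadjusted p under 0.05 and a median of -0.17. Of 10 regulators of mitochondrial gene expression all 10 had higher means, with a median of 0.54, and 2 rose (10% over all genes). mtTFB2, a transcription factor of the mitochondrial genome, was at 12.9 and 11.5 in ap > GFP and at 26.2, 24.9 and 25.4 in the tumorous discs (1.04, SE 0.22, adjusted p = 0.0104). bsf, which binds mitochondrial RNA, had 0.83 (SE 0.18, adjusted p = 0.0109).

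Marker genes of the disc and of other tissues were read beside these results. Over all genes tested, 12.1% were called lower and 10% higher in the tumorous discs against ap > GFP. Of 6 muscle genes (Mhc, Act57B, up, wupA, Mlc2 and Tm1), 4 fell in the tumorous discs, and their values summed to 447 to 681 in ap > GFP, 394 to 1338 in ap > NelfAi, 234 to 266 in ap > Yki and 237 to 268 in the tumorous discs. Of 5 genes of adepithelial myoblasts, the muscle precursors attached to the disc, 3 fell, with sums of 83.2 to 99.2 in ap > GFP, 61.6 to 127 in ap > Yki and 41.8 to 51.5 in the tumorous discs. All 3 salivary gland genes fell. Their sums were 54.1 to 250.3 in ap > GFP and 2.69 to 9.81 in ap > Yki. In the tumorous discs they were 0.274 to 2.79. Of 3 genes of the trachea 1 fell (73.1 to 81.6 against 51.3 to 76.1), and of 5 of hemocytes (11.6 to 14.8 against 13.2 to 22.3), 5 of larval fat body (30.8 to 36.5 against 12.6 to 45.8) and 3 of neurons (14.3 to 17.1 against 10.6 to 20.7) no gene was called by limma. The larval fat body sums spread more widely in the other genotypes, from 43.05 to 258.3 in ap > NelfAi and from 14.95 to 166 in ap > Yki. Those of hemocytes were 21.74 to 29.95 in ap > NelfAi and 21.66 to 60.28 in ap > Yki. Of the 7 disc epithelium markers 3 fell and 1 rose, and the genes called were en, vg, nub and wg. No list had a marker at 0 in every library. The part of these cells in the values of the 35 genes was not tested.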

How the data were processed

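The authors aligned reads with HISAT (the submitters' processing notes name HISAT, StringTie, bcl2fastq and edgeR, and the build dm6) and deposited 1 table of signal values, the reads per gene divided by a factor of the library. Whole reads were recovered for 100% of the values (tolerance 0.001 read). Another 5 entries, with 28.4% to 36.5% of a library, hold reads that were not counted for any gene, and they were not used. Reads that lay on no gene made up 2.27% to 8.88% of a library. Reads without a unique alignment made up 12.8% to 21.8%, and whether these came from the listed genes was not tested. The deposited tables of the authors' own comparisons (log2 fold changes, p-values) were not used.

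limma (3.58.1, trended variance) was fitted to log2(value + 0.5) for all 10 libraries in 1 model with genotype as the factor, over 7858 genes, those that reached a value of 1 in 2 or more libraries. A call needed a change of 1.5-fold or more and an adjusted p (Benjamini-Hochberg) under 0.05. Alternatives were edgeR (4.0.16) and DESeq2 (1.42.0) on the recovered reads, RLE and TMM scaling, pseudocounts of 0.1 and 1, no filter, no minimum fold, a fit of a pair of genotypes alone, a block for the replicate number, removal of the trend with transcript length (lowess, span 0.3) and each library left out in turn. Leaving out both ap > NelfAi libraries was added after seeing the data. The fits were tested on simulated data.

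The genes and lists were chosen with earlier results of these data known. The rule named every gene called, the highest and lowest of each complex, and representatives of each complex; ND23, CoVIb, CoVIIc, ATPsyn-b, ATPsyn-Cf6 and ATPsynG were also named after their values were seen. Of the genes listed 7869, and all 35 members, matched the reference annotation, which gave current symbols, coordinates and lengths. Replicates of 1 genotype differed by far more than counting error (chi-square per degree of freedom of 19.9 to 138), so none was a copy.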

Additional observations from a re-analysis of the deposited data

How the results depend on the processing

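No result changed direction past its threshold under any alternative, and the 10 calls of tumorous discs against ap > GFP kept their sign in every setting. Leaving out 1 library at a time, the members called ranged from 0 to 15 in that comparison, from 2 to 21 against ap > NelfAi, from 0 to 5 against ap > Yki, from 0 to 2 for ap > Yki against ap > GFP, from 0 to 4 for the interaction and stayed at 0 for ap > NelfAi against ap > GFP. DESeq2 called 16 against ap > NelfAi, 2 against ap > Yki and 2 for ap > Yki against ap > GFP. With only the 2 genotypes compared in the fit, the tumorous comparisons gave 16 against ap > GFP, 0 against ap > NelfAi and 3 against ap > Yki. Without both ap > NelfAi libraries there were 5 against ap > Yki and 2 for ap > Yki against ap > GFP. With the trend with transcript length removed, 5 were called against ap > Yki, and 5 also with the replicate block added. The cause of these differences was not tested. With the replicate block alone the tumorous comparisons gave 2 (CoIV and l(1)G0255) against ap > GFP, 2 against ap > NelfAi and 0 against ap > Yki, and the block changed no other count. The deviations of same-numbered libraries correlated between -0.43 and 0.59. In a genotype of 2 libraries the deviations mirror each other, so these values cannot decide whether the replicate numbers pair the libraries. The interaction was not run with only 2 genotypes, and promoter motifs were not run. The lowest depth was that of ox, with 30 to 91 reads per library.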

Other observations

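Of 12 glycolysis genes tested, 11 had higher means in the tumorous discs than in ap > GFP, with a median log2 fold change of 0.45, and 3 rose, where 10% of all genes tested were called higher. ImpL3, lactate dehydrogenase (now Ldh), which turns pyruvate into lactate, was at 16.0 and 21.9 in ap > GFP, at 28.7 and 10.6 in ap > NelfAi, at 194, 235 and 173 in ap > Yki, and at 457.5, 1355 and 830 in the tumorous discs. The libraries of ap > GFP, ap > Yki and the tumorous discs did not overlap, and the log2 fold change was 5.38 against ap > GFP (SE 0.48, limma, adjusted p = 0.000105), with every tumorous library higher. Ald, aldolase, was at 268 and 217 in ap > GFP and at 865, 1337 and 1084 in the tumorous discs (2.16, SE 0.22, adjusted p = 0.000221). PyK, pyruvate kinase, was at 138 and 136 against 195, 237 and 195 (0.60, SE 0.16, adjusted p = 0.0254), and with Yki alone it was at 201, 204 and 188. In the same comparison 9 of the 35 genes chosen by the rule fell, and whether the lists differ was not tested.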
